A study of Mus musculus with 9 samples.

Results

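The genes described here are 43 genes of the G2/M transition, the mitotic spindle and cytokinesis, chosen by name from the 18738 genes of a table of newborn mouse cardiomyocyte expression. All 43 were found by gene symbol, and all 43 averaged 1 TPM or more across the libraries, the minimum for testing that 13655 genes met. By role they fall into 7 classes: 11 genes of mitotic entry, 6 of the spindle checkpoint and anaphase, 10 of the kinetochore and the chromosomal passenger complex, 6 mitotic kinesins, 4 spindle assembly factors, 4 cytokinesis genes and 2 general proliferation and chromosome markers.

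The data were 9 RNA-seq libraries of heart cardiomyocytes from wild-type (WT) C57BL/6J pups on the day of birth (P0). The diet belonged to the mother and not to the pup: pregnant females were assigned at random to 1 of 3 diets, a high-fat diet (HFD), a slight high-fat one (sHFD) or a normal one (ND), which they ate throughout gestation, and each diet had 3 libraries. The composition of the diets is not given in the sources used here. The series ties the experiment to defective cardiomyocyte proliferation in HFD hearts, so the mitosis genes bear on its stated question. Values are TPM, a measure of transcript abundance that is scaled for gene length and is relative to the total of each library.

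Entry into mitosis is driven by the kinase Cdk1 bound to cyclin B, with Cdc25 phosphatases, Plk1 and the Aurora kinases acting around it. Chromosomes are then captured by kinetochores on spindle microtubules, the spindle checkpoint holds back the anaphase-promoting complex until all are attached, and the cell is divided by a contractile ring placed by the central spindle. Many genes of this programme peak together in G2 and M phase through the factors B-Myb and FoxM1 on the MuvB complex, which binds a short promoter element named CHR (cell cycle genes homology region), often close to CCAAT boxes bound by NF-Y. In mice, most cardiomyocytes leave the cell cycle around and soon after birth, and in a last round many complete nuclear division without cytokinesis and become binucleate.

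The promoters of 7 members are shown because all 7 printed stretches hold a CCAAT box and 5 of them a CHR. They include members with and without a call: Ccnb1, Nek2, Aurka, Ube2c and Cdc20 were called higher in HFD than in ND, and Cdk1 and Top2a were not called. Each line holds the 120 bases just before the start of the promoter entry, from RefSeq on GRCm38.p6, read 5′ to 3′ on the strand of the gene. Capitals mark CCAAT boxes (CCAAT, or ATTGG where the box lies on the other strand) and CHR elements (TTTGAA or TTTAAA, or TTCAAA where TTTGAA lies on the other strand). The windows are chr13:100786487-100786606 (minus strand) for Ccnb1, chr1:191821353-191821472 (plus strand) for Nek2, chr2:172370571-172370690 (minus strand) for Aurka, chr2:164769809-164769928 (plus strand) for Ube2c, chr4:118437344-118437463 (minus strand) for Cdc20, chr10:69352913-69353032 (minus strand) for Cdk1 and chr11:99024190-99024309 (minus strand) for Top2a.
Ccnb1: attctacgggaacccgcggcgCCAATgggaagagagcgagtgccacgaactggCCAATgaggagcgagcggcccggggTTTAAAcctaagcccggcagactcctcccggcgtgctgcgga
Nek2: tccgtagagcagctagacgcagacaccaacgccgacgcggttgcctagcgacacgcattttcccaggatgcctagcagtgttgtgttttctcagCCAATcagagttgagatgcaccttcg
Aurka: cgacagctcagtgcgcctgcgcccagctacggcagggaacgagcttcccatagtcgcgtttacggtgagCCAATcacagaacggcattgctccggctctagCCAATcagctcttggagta
Ube2c: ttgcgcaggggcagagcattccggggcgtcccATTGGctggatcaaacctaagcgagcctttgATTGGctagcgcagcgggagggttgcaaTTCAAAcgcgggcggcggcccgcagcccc
Cdc20: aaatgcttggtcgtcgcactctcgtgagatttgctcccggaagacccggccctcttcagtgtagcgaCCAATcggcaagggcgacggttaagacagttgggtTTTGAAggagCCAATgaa
Cdk1: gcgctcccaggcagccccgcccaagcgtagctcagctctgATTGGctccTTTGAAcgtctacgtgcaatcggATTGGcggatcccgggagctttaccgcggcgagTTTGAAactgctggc
Top2a: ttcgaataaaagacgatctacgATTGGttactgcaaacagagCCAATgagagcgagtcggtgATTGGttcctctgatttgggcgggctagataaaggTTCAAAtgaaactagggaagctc

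A promoter entry, from 250 bases before to 50 bases after the start, was matched by Entrez gene ID for 35 of the 43 members. Among these 35, 26 (74.3%) held TTTGAA on either strand, 10 (28.6%) held TTTAAA and 26 (74.3%) held CCAAT. Among the 10871 tested genes with an entry, 14.3% held TTTGAA, 11.1% held TTTAAA and 43.1% held CCAAT. A CHR of either form together with a CCAAT box occurred in 23 of the 35 members (65.7%), against 9.48% of the tested genes. A CHR of either form lay in 10 of the 11 matched members called higher in HFD vs ND and in 19 of the 24 other matched members. Nek2 held 2 CCAAT boxes and no CHR in its window, and both CHR matches of Aurka lay after its start, outside the stretch printed above. A match here is a run of letters and not a tested binding site. Ccna2, Cdc25c, Foxm1, Pbk, Aurkb, Incenp, Kif20a and Tpx2 had no matched entry.

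**Figure D1:**
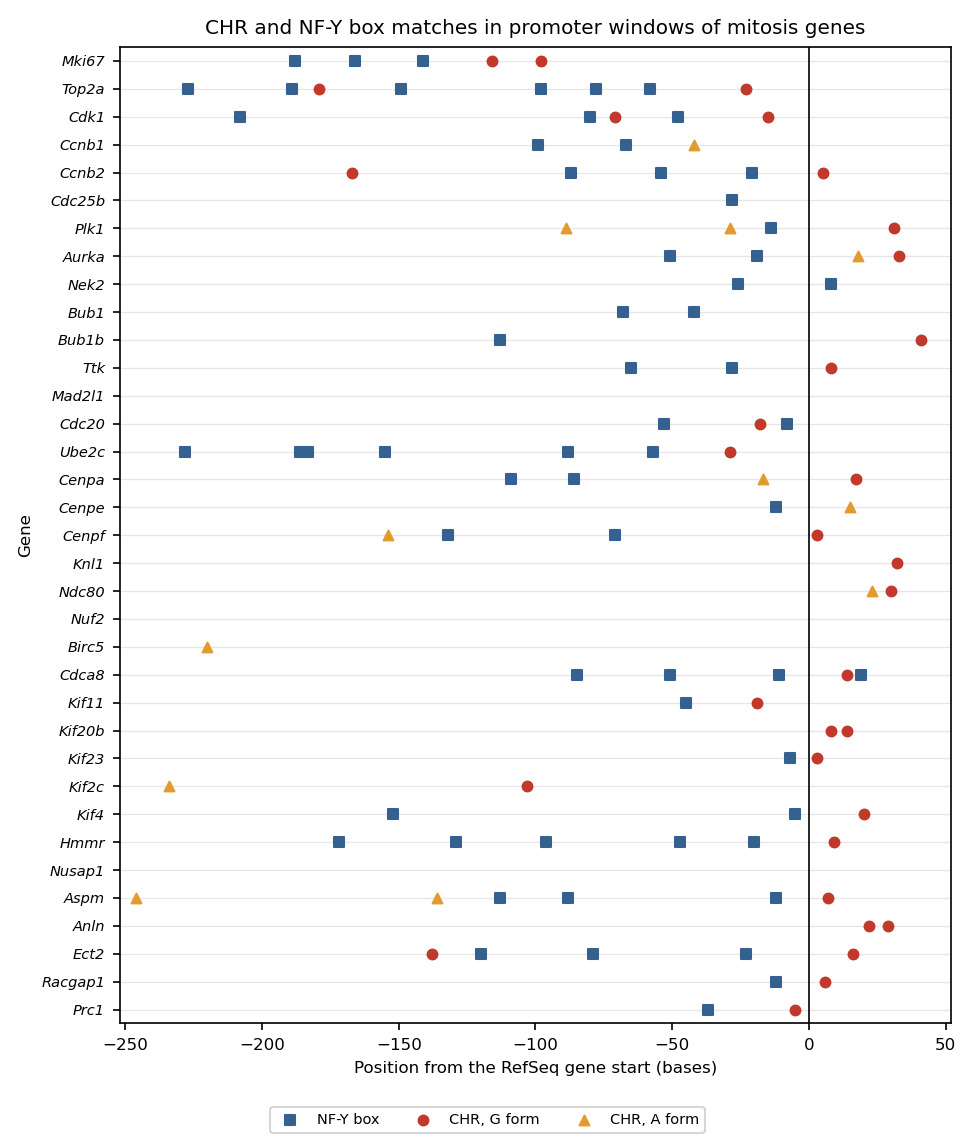
Position of CHR and NF-Y box (CCAAT) matches, in bases from the start of the RefSeq promoter entry (horizontal axis, start at 0), in the 35 members with an entry (rows); circles and triangles are the 2 CHR forms and squares the NF-Y box, and a member with more than 1 window is drawn from the one of lowest coordinate. Most CHR matches lie within 50 bases of the start, and most NF-Y boxes lie upstream of it.

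In absolute level the members were of middling abundance, with means over the 9 libraries of 3.99 TPM for Knl1, a kinetochore scaffold, to 87.8 TPM for Cenpa, the centromeric histone H3 variant, and a median of 22.8 TPM. All 15 cardiomyocyte marker genes were present in every library, and so were the listed markers of fibroblasts, endothelium, immune and red cells. Presence alone therefore does not single out the labelled cell type. In bulk samples, fewer cells of a type and less RNA per cell cannot be told apart, and neither can the cell type in which a mitosis gene was expressed. Read numbers cannot be recovered from TPM, and the depth is unknown. The labels do not state whether the 3 libraries of a diet came from separate litters or animals, and the p-values measure only how these samples vary, which may be technical. Differences were tested with limma across all 13655 genes on log2(TPM + 1), which understates the fold changes of low genes, and adjusted by the Benjamini-Hochberg method over all of them with a threshold of 0.05. On this scale the median of all genes was -0.14 for HFD vs ND and -0.16 for HFD vs sHFD, so member medians are also given relative to it. HFD vs ND and sHFD vs ND share the ND libraries, and HFD vs ND and HFD vs sHFD share the HFD libraries.

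In HFD vs ND, the members called higher after the high-fat diet were 5 of 11 mitotic entry genes, 2 of 6 checkpoint and anaphase genes, 5 of 10 kinetochore and passenger genes and 1 of 6 kinesins. Of the 43 members, 13 (30.2%) passed the threshold as higher, where 1.28% of all genes did, and 0 passed as lower, where 9.59% of all genes did. At an unadjusted p under 0.05, 25 members were higher, against 6.37% of all genes, and 0 were lower, against 23.4%. The 3 HFD libraries all lay above the 3 ND libraries in 23 members, against 5.00% of all genes, and all below in 0 members, against 22.9%. The log2 fold change was above 0 in 38 members, against 36.5% of all genes, and below 0 in Pbk, Ttk, Nuf2, Top2a and Bub1b. The member median was 0.56, which is 0.70 above that of all genes, and single members ran from -0.38 for Pbk, a mitotic kinase, to 1.35 for Nek2. With each library scaled to a common median ratio, 25 members were called higher and 0 lower, while the calls over all genes moved to 642 higher and 997 lower, against 175 higher and 1309 lower as deposited. Quantile normalization called 19 members higher and 0 lower, with 427 genes higher and 637 lower over all genes.

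Single libraries decided how many members passed. With HFD replicate 1 left out, 0 members were higher in HFD vs ND, and the count was also 0 when HFD replicate 2 or ND replicate 3 was left out. Over all genes these 3 fits called 10, 4 and 5 genes higher, and the member median stayed at 0.58, 0.48 and 0.45. Without ND replicate 1 the count was 22, with 987 genes called higher over all genes, and it was 5 without ND replicate 2 and 6 without sHFD replicate 3. Over all genes, the fits without ND replicate 2 and without sHFD replicate 3 each called 80 higher, against 175 with all libraries. All 13 called members kept their direction in each of these 9 fits, and each passed the threshold in 2 to 6 of them. Among the 13 called members ND replicate 1 was the highest ND library in 12, and it was so in 11 of the other 30. Over all 43 members, ND replicate 1 was the highest of its diet in 23 and replicate 2 in 19. ND replicate 3 was the lowest in 29.

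**Figure D2:**
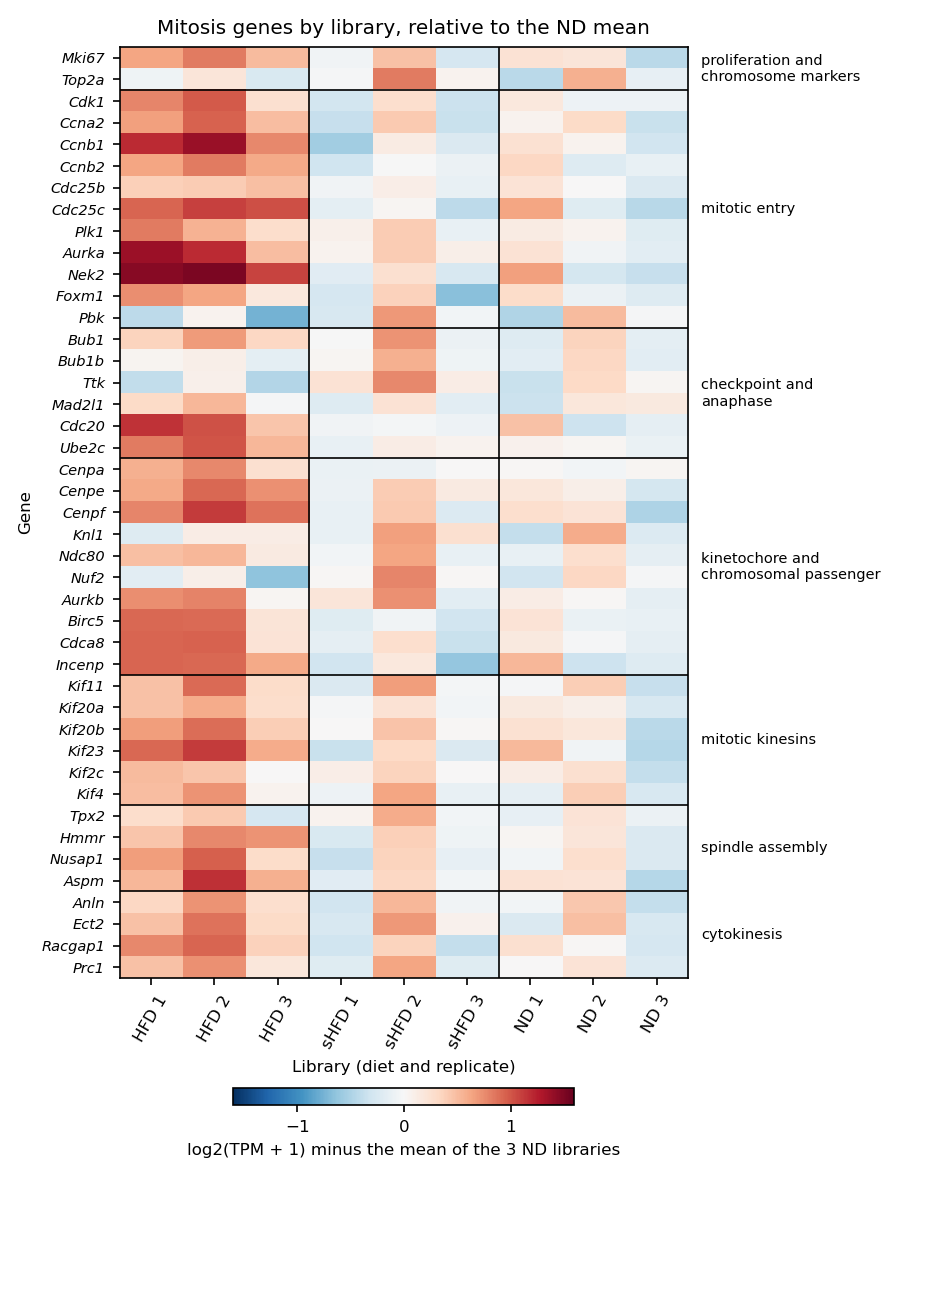
Each cell is log2(TPM + 1) of a member (rows, grouped by role) in a library (columns: HFD, sHFD, then ND, with the replicate number) minus the mean of the 3 ND libraries, red above and blue below. HFD replicates 1, 2 and 3 are above the ND mean in 38, 43 and 36 rows and sHFD replicate 2 in 39, across all classes, while sHFD replicates 1 and 3 are below it in 34 and 32 rows and ND replicate 3 in 40.

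Mitotic entry genes gave 5 of the 13 calls, among 11 members, with a class median of 0.69, and 9 were called with median-ratio scaling and 8 with quantile normalization. Nek2 (Entrez 18005, chr1:191821449-191833049), a centrosomal kinase that frees the centrosomes from each other before the spindle forms, had 34.0, 35.4 and 26.1 TPM in HFD libraries, 10.3, 14.3 and 9.69 TPM in sHFD libraries, and 19.2, 9.49 and 8.86 TPM in ND libraries. The HFD libraries were above all others, and ND replicate 1 stood between them and the remaining ND libraries. Nek2 rose by 1.35 on the log2 scale in HFD vs ND (SE 0.27, adjusted p = 0.0132). It had the largest log2 fold change of the 43 members. Of the exonic bases of Nek2, 6.6% overlap Gm38037 on the opposite strand.

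Ccnb1 (Entrez 268697, chr13:100778739-100786486) encodes cyclin B1, the partner that activates Cdk1 at mitotic entry. It had 58.4, 66.6 and 43.0 TPM in HFD libraries, 16.6, 27.2 and 21.0 TPM in sHFD libraries, and 29.8, 25.9 and 19.9 TPM in ND libraries. No HFD library overlapped with the others. Ccnb1 rose by 1.12 on the log2 scale (SE 0.22, adjusted p = 0.0141). Of the 50-base stretches of its longest transcript, 42.1% also occur in transcripts of other genes, mostly in the pseudogene Ccnb1-ps, so its level is uncertain. Ccnb2 (Entrez 12442, chr9:70407689-70421554), which encodes cyclin B2 and shares no such stretch, had 61.6, 70.8 and 60.9 TPM in HFD libraries, 31.5, 39.4 and 37.1 TPM in sHFD libraries, and 49.8, 34.1 and 36.3 TPM in ND libraries. Its HFD libraries were again above all others, and Ccnb2 rose by 0.69 on the log2 scale (SE 0.18, adjusted p = 0.0290).

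Aurka (Entrez 20878, chr2:172356190-172370886), the Aurora kinase of centrosome maturation and spindle poles, had 32.7, 28.7 and 17.3 TPM in HFD libraries, 12.5, 16.2 and 12.8 TPM in sHFD libraries, and 14.2, 11.6 and 10.5 TPM in ND libraries. HFD replicate 3 was close to the highest sHFD library, and the groups did not overlap. Aurka rose by 1.02 on the log2 scale (SE 0.23, adjusted p = 0.0203). Cdc25c (Entrez 12532), a phosphatase that removes inhibitory phosphates from Cdk1, had 13.7, 15.5 and 14.8 TPM in HFD libraries, 5.93, 6.90 and 4.82 TPM in sHFD libraries, and 11.1, 5.79 and 4.69 TPM in ND libraries. The HFD libraries lay within a narrow band, and ND replicate 1 came nearest to them. The rise of Cdc25c was 1.01 on the log2 scale (SE 0.26, adjusted p = 0.0290), and 12.7% of its exonic bases overlap Gm3550 on the opposite strand.

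Cdk1 itself, the kinase that cyclin B activates, had 37.6, 43.5 and 25.9 TPM in HFD libraries, 17.4, 26.1 and 16.7 TPM in sHFD libraries, and 24.2, 20.2 and 20.3 TPM in ND libraries. The lowest HFD library lay just above the highest ND library and just below the highest sHFD library. Its log2 fold change of 0.67 in HFD vs ND (SE 0.22, adjusted p = 0.0667) missed the threshold, which it passed with median-ratio scaling (adjusted p = 0.0356) and quantile normalization (adjusted p = 0.0489). Ccna2 (cyclin A2), Cdc25b and Plk1 also had all HFD libraries above all ND libraries without passing, with log2 fold changes of 0.70, 0.42 and 0.56 and adjusted p-values of 0.0706, 0.122 and 0.0876. Foxm1, the transcription factor of the G2/M programme, had a log2 fold change of 0.51 (SE 0.26, adjusted p = 0.196), and its libraries overlapped.

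**Figure D3:**
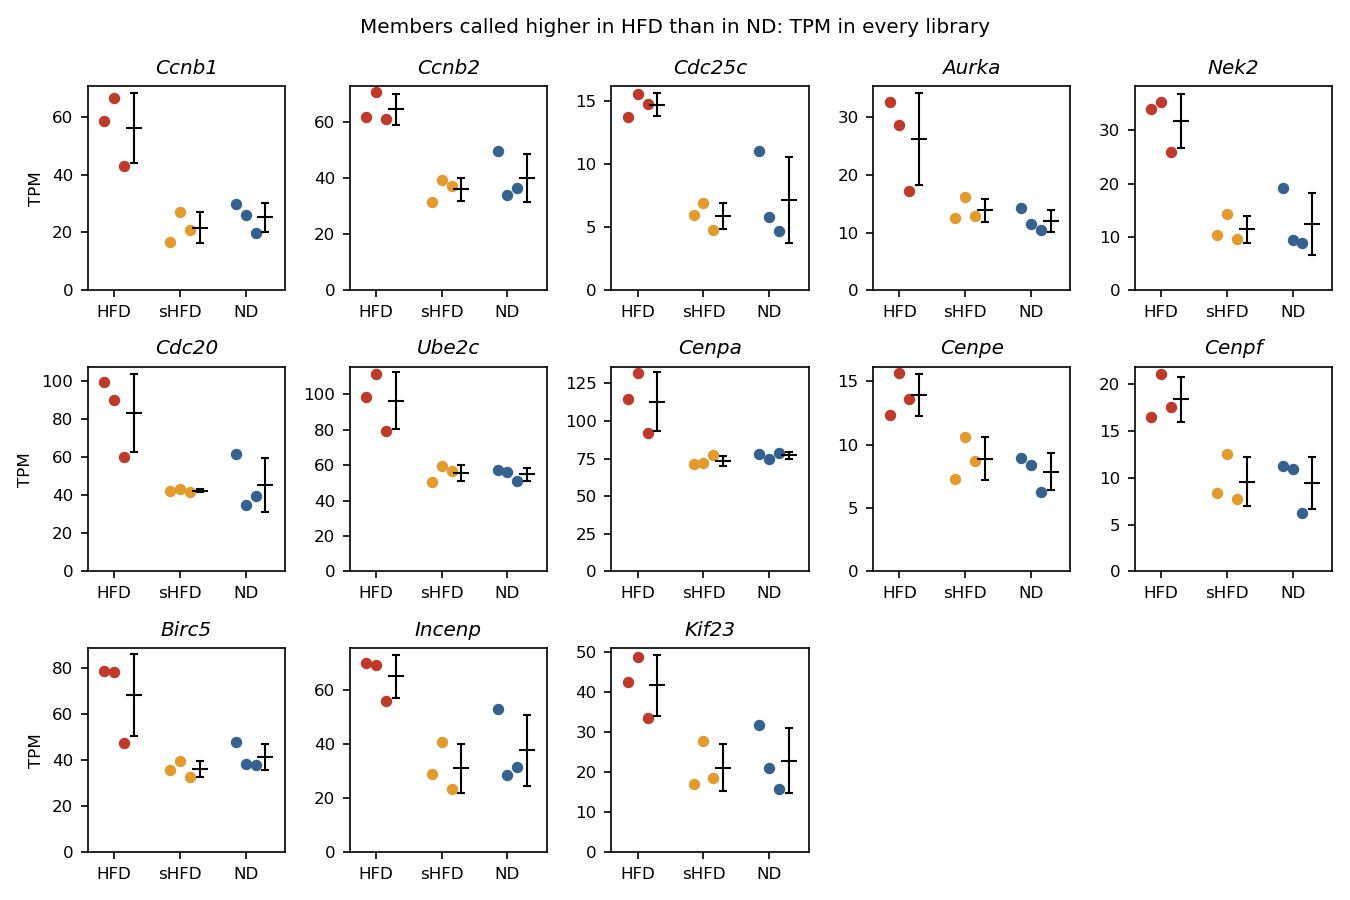
TPM (vertical axes, from 0) of the 13 members called higher in HFD than in ND, in HFD, sHFD and ND libraries; points are libraries in replicate order, and the bar beside them is the mean with the SD of 3 libraries. HFD points lie above the ND points in 11 panels, the libraries of Cdc20 and Birc5 overlap, and the first ND point is often the highest of its group.

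Of the 6 checkpoint and anaphase genes, Ube2c and Cdc20 rose. Ube2c (Entrez 68612, chr2:164769929-164772902), the ubiquitin-conjugating enzyme that works with this complex, had 98.3, 111 and 79.5 TPM in HFD libraries, 50.5, 59.6 and 56.8 TPM in sHFD libraries, and 57.4, 56.1 and 50.8 TPM in ND libraries. Its HFD libraries stood well clear of both other groups, which were tight. Ube2c rose by 0.79 on the log2 scale (SE 0.16, adjusted p = 0.0141). It shares 22.8% of its exonic bases with Tnnc2, a troponin C gene on the opposite strand, and whether reads were counted by strand is not stated, so the genes cannot be told apart there. Cdc20 (Entrez 107995, chr4:118432901-118437343), the activator of the complex at anaphase, had 99.2, 89.9 and 59.9 TPM in HFD libraries, 42.3, 43.1 and 41.4 TPM in sHFD libraries, and 61.4, 34.8 and 39.7 TPM in ND libraries. HFD replicate 3 fell just below ND replicate 1, so the HFD and ND libraries overlapped. Cdc20 rose by 0.87 on the log2 scale (SE 0.22, adjusted p = 0.0298), and 11.4% of its 50-base stretches occur in other genes, mostly Gm7856.

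The other checkpoint members, Bub1, Bub1b, Ttk and Mad2l1, had log2 fold changes in HFD vs ND of 0.45, 0.00, -0.26 and 0.27, with adjusted p-values of 0.237 to 0.991. With quantile normalization Bub1, a checkpoint kinase, passed as well (adjusted p = 0.0482). Ttk, the Mps1 kinase that starts checkpoint signalling, had 4.30, 6.34 and 4.05 TPM in HFD libraries, 7.15, 10.8 and 6.57 TPM in sHFD libraries, and 4.45, 7.70 and 6.12 TPM in ND libraries. The HFD libraries overlapped with ND and lay below all sHFD libraries.

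The kinetochore and chromosomal passenger class held 5 called members of 10, against 6 with median-ratio scaling and 2 with quantile normalization. Under quantile normalization Cenpa (adjusted p = 0.0658), Birc5 (adjusted p = 0.0556) and Incenp (adjusted p = 0.0529) missed the threshold. Cenpa (Entrez 12615, chr5:30666877-30674837) had 115, 132 and 92.1 TPM in HFD libraries, 71.4, 72.0 and 77.5 TPM in sHFD libraries, and 77.8, 74.4 and 78.9 TPM in ND libraries. The sHFD and ND libraries were close together and the HFD libraries were above them all. Cenpa rose by 0.53 on the log2 scale (SE 0.16, adjusted p = 0.0451).

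Cenpe (Entrez 229841, chr3:135212563-135273540), a kinetochore kinesin that moves chromosomes to the spindle equator, had 12.4, 15.7 and 13.6 TPM in HFD libraries, 7.27, 10.6 and 8.74 TPM in sHFD libraries, and 8.98, 8.38 and 6.26 TPM in ND libraries. Cenpf (Entrez 108000, chr1:189640606-189688107), a large outer kinetochore protein, had 16.5, 21.1 and 17.5 TPM in HFD libraries, 8.41, 12.6 and 7.75 TPM in sHFD libraries, and 11.3, 10.9 and 6.24 TPM in ND libraries. Neither gene had an HFD library within the range of another diet. On the log2 scale Cenpe rose by 0.75 (SE 0.21, adjusted p = 0.0370) and Cenpf by 0.92 (SE 0.25, adjusted p = 0.0334).

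Of the chromosomal passenger complex, which corrects faulty attachments and later marks the central spindle, the scaffold Incenp and the adaptor Birc5 (survivin) passed, while the kinase Aurkb and the subunit Cdca8 (borealin) did not. Incenp (Entrez 16319, chr19:9872295-9899489) had 70.0, 69.2 and 55.9 TPM in HFD libraries, 29.0, 40.9 and 23.3 TPM in sHFD libraries, and 52.8, 28.7 and 31.4 TPM in ND libraries. ND replicate 1 came within a few TPM of the lowest HFD library without reaching it. Incenp rose by 0.82 on the log2 scale (SE 0.24, adjusted p = 0.0489). Birc5 (Entrez 11799, chr11:117849237-117855743) had 78.9, 78.3 and 47.7 TPM in HFD libraries, 35.9, 39.7 and 33.0 TPM in sHFD libraries, and 48.0, 38.3 and 38.0 TPM in ND libraries. HFD replicate 3 and ND replicate 1 were at the same level, so the groups overlapped. Birc5 rose by 0.68 on the log2 scale (SE 0.20, adjusted p = 0.0472).

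Aurkb, the kinase of this complex, had 30.2, 31.4 and 18.0 TPM in HFD libraries, 20.3, 30.0 and 15.7 TPM in sHFD libraries, and 19.3, 18.0 and 15.9 TPM in ND libraries. HFD replicate 3 lay within the ND range, and sHFD replicate 2 matched the higher HFD libraries. The log2 fold change of Aurkb was 0.52 (SE 0.25, adjusted p = 0.186), and that of Cdca8 was 0.70 (SE 0.23, adjusted p = 0.0633), which passed with median-ratio scaling (adjusted p = 0.0367). Knl1, Ndc80 and Nuf2, which form the microtubule-binding core of the kinetochore, had log2 fold changes of 0.01, 0.38 and -0.24, with adjusted p-values of 0.285 to 0.981.

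Kif23 (Entrez 71819), also known as MKLP1, the kinesin of the centralspindlin complex that bundles the central spindle, was the 1 kinesin called among 6 on the deposited scale. It had 42.4, 48.7 and 33.6 TPM in HFD libraries, 17.0, 27.8 and 18.6 TPM in sHFD libraries, and 31.8, 21.1 and 15.7 TPM in ND libraries. The lowest HFD library lay just above ND replicate 1. Kif23 rose by 0.87 on the log2 scale (SE 0.26, adjusted p = 0.0456). The other 5 kinesins, Kif11, Kif20a, Kif20b, Kif2c and Kif4, had log2 fold changes of 0.32 to 0.65, all above 0, with adjusted p-values of 0.0912 to 0.360. With median-ratio scaling and with quantile normalization 3 of the 6 kinesins passed, Kif20a (adjusted p = 0.0360 and 0.0468) and Kif20b (adjusted p = 0.0390 and 0.0339) beside Kif23. Kif20a shares 29.3% of its exonic bases with Cdc23 on the opposite strand, where the same limit holds. Among other members, it also holds for Kif4 with Pdzd11 (15.1%), Ccna2 with Exosc9 (12.5%) and Prc1 with Rccd1 (11.1%).

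On the deposited scale 0 of 4 spindle assembly factors and 0 of 4 cytokinesis genes passed in HFD vs ND, and all 8 had log2 fold changes above 0. The spindle assembly calls depended on the scaling: 3 of 4, Hmmr, Nusap1 and Aspm, passed as higher with median-ratio scaling (adjusted p = 0.0183 to 0.0360) and with quantile normalization (adjusted p = 0.0200 to 0.0445). Of the cytokinesis genes, Racgap1 passed with median-ratio scaling (adjusted p = 0.0311), and 0 of 4 did with quantile normalization. The class medians were 0.64 for the 4 spindle assembly factors and 0.50 for the 4 cytokinesis genes. Hmmr, which links spindle poles to microtubules, had 16.7, 21.1 and 20.2 TPM in HFD libraries, 9.90, 15.8 and 11.3 TPM in sHFD libraries, and 12.3, 13.8 and 10.1 TPM in ND libraries. Its HFD libraries lay above all others at a log2 fold change of 0.64 (SE 0.21, adjusted p = 0.0643). Tpx2, which activates Aurora A on spindle microtubules, had 33.5, 36.7 and 22.5 TPM in HFD libraries, 28.4, 41.5 and 26.5 TPM in sHFD libraries, and 24.9, 31.9 and 25.5 TPM in ND libraries. All 3 groups of Tpx2 overlapped, at a log2 fold change of 0.14 (SE 0.22, adjusted p = 0.699).

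Among the cytokinesis genes, Racgap1, the GTPase-activating partner of Kif23 in centralspindlin, had 78.8, 88.0 and 59.3 TPM in HFD libraries, 36.5, 58.8 and 34.9 TPM in sHFD libraries, and 54.5, 46.4 and 37.6 TPM in ND libraries. Its HFD libraries lay above all others, by a small margin over sHFD replicate 2, at a log2 fold change of 0.69 (SE 0.22, adjusted p = 0.0629). Anln (anillin), the scaffold of the contractile ring, had 28.4, 37.4 and 27.2 TPM in HFD libraries, 17.8, 32.7 and 21.4 TPM in sHFD libraries, and 21.6, 30.4 and 16.9 TPM in ND libraries. The libraries of the 3 diets overlapped, at a log2 fold change of 0.44 in HFD vs ND (SE 0.25, adjusted p = 0.256). Ect2, the exchange factor that activates RhoA at the division site, had 13.5, 18.1 and 12.0 TPM in HFD libraries, 7.76, 15.9 and 9.97 TPM in sHFD libraries, and 7.93, 13.7 and 7.82 TPM in ND libraries. Ect2 also overlapped between diets, at 0.55 (SE 0.28, adjusted p = 0.204), and Prc1, which bundles antiparallel microtubules, was at 0.46 (SE 0.23, adjusted p = 0.202).

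The 2 general markers had unlike values. Mki67, which encodes the proliferation antigen Ki-67, had 78.4, 90.1 and 71.2 TPM in HFD libraries, 48.0, 69.5 and 41.4 TPM in sHFD libraries, and 58.8, 57.4 and 37.0 TPM in ND libraries. All HFD libraries lay above all others, at a log2 fold change in HFD vs ND of 0.66 (SE 0.22, adjusted p = 0.0696), which missed the threshold and passed it with median-ratio scaling (adjusted p = 0.0288). Top2a, the topoisomerase that untangles chromosomes in S phase, G2 and mitosis, had 48.3, 58.1 and 42.8 TPM in HFD libraries, 50.1, 91.0 and 52.8 TPM in sHFD libraries, and 37.3, 75.6 and 46.1 TPM in ND libraries. The libraries of the 3 diets overlapped, and sHFD replicate 2 and ND replicate 2 were the highest, at a log2 fold change of -0.04 (SE 0.27, adjusted p = 0.939) that was 0.12 under median-ratio scaling.

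In sHFD vs ND, no mitosis gene was called. Members past the threshold numbered 0 in each direction, where limma called 0.00% of all genes higher and 0.00732% lower, and 0 members had an unadjusted p under 0.05, where 3.70% of all genes were higher and 3.66% lower at that p. No member had its 3 sHFD libraries all above or all below the 3 ND libraries, against 4.50% of all genes above and 4.90% below. The member median was 0.05, with a range of -0.25 for Incenp to 0.37 for Ttk, and 26 members were above 0, against 50.2% of all genes. The sign of this median turned with single libraries, from -0.12 to 0.15 in the fits that each left out 1 library.

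The smallest p-values of the 7 classes in sHFD vs ND belonged to Ttk, Top2a, Incenp, Ccnb1, Tpx2, Kif2c and Ect2. Ttk had a log2 fold change of 0.37 (SE 0.25, unadjusted p = 0.164, adjusted p = 0.716), the smallest p of the 43. Kif2c, the kinesin that depolymerises microtubules to correct faulty attachments, had 11.9, 11.3 and 8.09 TPM in HFD libraries, 8.73, 10.6 and 8.05 TPM in sHFD libraries, and 8.84, 9.78 and 5.97 TPM in ND libraries, and its groups overlapped. Its difference in sHFD vs ND was 0.16 (SE 0.23, adjusted p = 0.860). Those of the other 5 lay between -0.25 and 0.29, with adjusted p-values of 0.776 to 0.881. These values do not show that the 2 diets give the same levels: the standard errors of the members ran up to 0.30 on the log2 scale.

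In HFD vs sHFD, 22 of the 43 members were higher (51.2%), against 10.3% of all genes, and 0 were lower, against 23.9%. At an unadjusted p under 0.05, 24 members were higher, against 14.7% of all genes, and 1, Ttk, was lower, against 30.9%. HFD libraries lay above all sHFD libraries in 20 members, against 16.6% of all genes, and below them all in 1 member, Ttk, against 34.7%. The member median was 0.60, which is 0.75 above that of all genes, and 36 members had a fold change above 0, against 39.3% of all genes. With median-ratio scaling, 26 members were higher and 0 lower, while the calls over all genes moved to 2608 higher and 2600 lower, against 1406 higher and 3259 lower as deposited.

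The 22 members included all 13 of HFD vs ND, which shares the HFD libraries, and 9 more: Mki67, Cdk1, Ccna2, Foxm1, Cdca8, Hmmr, Nusap1, Aspm and Racgap1. By class, 8 of 11 mitotic entry genes, 2 of 6 checkpoint and anaphase genes, 6 of 10 kinetochore and passenger genes, 1 of 6 kinesins, 3 of 4 spindle assembly factors, 1 of 4 cytokinesis genes and 1 of 2 markers passed. Nek2 again had the largest difference, at 1.41 (SE 0.27, adjusted p = 0.00284), and Ccnb1 the smallest p, at 1.34 (SE 0.22, adjusted p = 0.0018). Incenp rose by 1.07 (SE 0.24, adjusted p = 0.00641), Kif23 by 0.96 (SE 0.26, adjusted p = 0.0133) and Ube2c by 0.77 (SE 0.16, adjusted p = 0.00413). Among the genes not called in HFD vs ND, Racgap1 rose by 0.80 (SE 0.22, adjusted p = 0.0161), Cdk1 by 0.80 (SE 0.22, adjusted p = 0.0165), Hmmr by 0.63 (SE 0.21, adjusted p = 0.0360) and Mki67 by 0.61 (SE 0.22, adjusted p = 0.0468).

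At the other end of HFD vs sHFD, Ttk was at -0.63 (SE 0.25, adjusted p = 0.0676), Nuf2 at -0.51 (SE 0.27, adjusted p = 0.150), Pbk at -0.51 (SE 0.30, adjusted p = 0.207) and Top2a at -0.33 (SE 0.27, adjusted p = 0.357). None of these passed. Leaving out 1 library at a time gave 8 to 23 members higher: 8 without HFD replicate 2, 9 without sHFD replicate 1, 9 without sHFD replicate 3 and 14 without HFD replicate 1. Over all genes these fits called 741, 634, 791 and 1237 genes higher, in that order, against 1406 with all libraries. In all 9 such fits, Ccnb1, Ccnb2, Cdc25c, Nek2, Cdc20, Ube2c, Birc5 and Incenp were called.

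**Figure D4:**
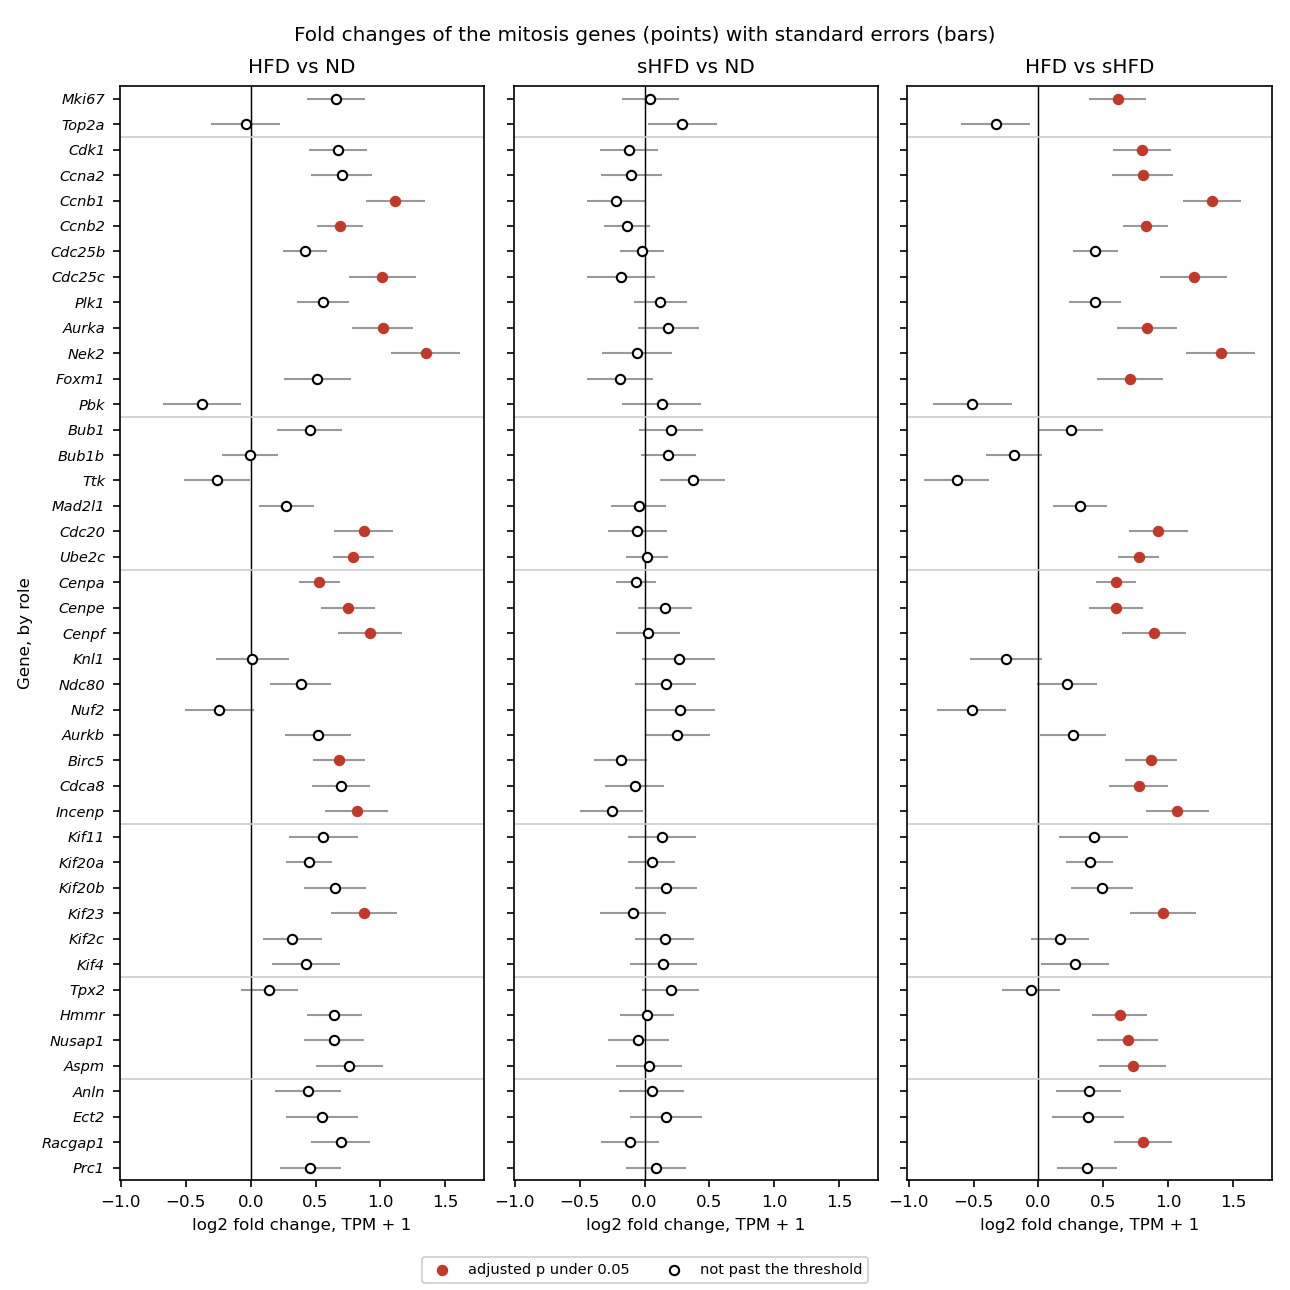
Log2 fold change on TPM + 1 (points, horizontal axis) with its standard error (bars) of each member, by role from top to bottom, in HFD vs ND, sHFD vs ND and HFD vs sHFD; filled points have an adjusted p under 0.05. The filled points number 13 for HFD vs ND, 0 for sHFD vs ND and 22 for HFD vs sHFD, all of them right of 0.

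The order of the libraries differed among the members. HFD replicate 2 was the highest of the 9 libraries in 26 members, HFD replicate 1 in 7 and HFD replicate 3 in 1. In the remaining 9 members, Top2a, Pbk, Bub1, Bub1b, Ttk, Knl1, Ndc80, Nuf2 and Tpx2, the highest library was sHFD replicate 2, and 0 of these 9 were called in any comparison. Within sHFD, replicate 2 was highest in 42 of the 43 members. Within HFD, replicate 3 was lowest in 36. The summed TPM of all 43 was 1605, 1782 and 1268 in HFD libraries, 899, 1297 and 902 in sHFD libraries, and 1091, 1090 and 876 in ND libraries, so the sums of HFD replicate 3 and sHFD replicate 2 overlapped.

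Ratios between members of 1 library do not depend on a factor applied to that library, and 9 pairs were computed as a description, chosen with the values known. In 4 of the 9, Ccnb1 over Top2a, Nek2 over Top2a, Ccnb1 over Ccna2 and Aurka over Tpx2, every HFD library was above every other library. In these 4 the first gene was called higher in HFD vs ND and the second was not, so separation partly follows from that choice. No share over all pairs of genes was computed. In the other 5, Cdc20 over Mad2l1, Incenp over Aurkb, Kif23 over Racgap1, Anln over Racgap1 and Ccnb1 over Ccnb2, the HFD and ND libraries overlapped. Ccnb1 over Top2a was 1.21, 1.15 and 1.00 in HFD libraries, 0.332, 0.300 and 0.398 in sHFD libraries, and 0.797, 0.343 and 0.432 in ND libraries. Aurka over its activator Tpx2 was 0.976, 0.782 and 0.769 in HFD libraries, 0.442, 0.390 and 0.485 in sHFD libraries, and 0.571, 0.362 and 0.413 in ND libraries. Kif23 over its partner Racgap1 was 0.538, 0.554 and 0.566 in HFD libraries, 0.466, 0.472 and 0.531 in sHFD libraries, and 0.583, 0.455 and 0.419 in ND libraries, which overlapped. With 3 libraries on each side, the smallest two-sided p of an exact permutation test is 0.1, and none was run.

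Other genes of the mitotic machinery were taken from lists that share no gene with the members. Their counts in HFD vs ND stand beside 1.28% of all genes called higher and 9.59% called lower. The median-ratio counts of the lists below stand beside 642 higher and 997 lower of 13655 genes. With quantile normalization the counts over all genes were 427 higher and 637 lower. Among 36 further genes listed under kinetochore and centromere, 2 rose and 2 fell in HFD vs ND, with a median of 0.24. Cdca3, a mitotic entry factor, rose by 0.91 (SE 0.19, adjusted p = 0.0145), Cenpl rose by 0.82 (SE 0.22, adjusted p = 0.0339), and Cenpo and Cenps fell, Cenpo with a log2 fold change of -0.71 (SE 0.21, adjusted p = 0.0446). This list had 10 higher and 0 lower with median-ratio scaling, and 7 higher and 0 lower with quantile normalization. Among 27 genes listed under the anaphase-promoting complex and mitotic exit, 0 rose and 2 fell. They were Mad1l1, a spindle checkpoint gene kept in this list, at -0.80 (SE 0.19, adjusted p = 0.0238), and Cdc23, at -0.73 (SE 0.21, adjusted p = 0.0438). Of the 27, 1 rose and 2 fell with median-ratio scaling, and 1 rose and 0 fell with quantile normalization. Ube2s, which extends the ubiquitin chains that Ube2c starts, was at 0.53 (SE 0.18, adjusted p = 0.0727).

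Among 19 condensin, cohesin and shugoshin genes, 1 rose, Sgo2a, the protector of centromeric cohesion, by 0.87 (SE 0.25, adjusted p = 0.0444), against 3 with median-ratio scaling and 4 with quantile normalization. Of 30 centrosome and centriole genes, 4 rose (Ckap2, Ckap2l, Kif18b and Kifc1) and 1 fell, Numa1, a spindle pole organiser, at -1.12 (SE 0.22, adjusted p = 0.0129). Kifc1, a minus-end kinesin, rose by 0.87 (SE 0.24, adjusted p = 0.0358) and Ckap2 by 0.80 (SE 0.21, adjusted p = 0.0333). The count that rose in this list was 7 with median-ratio scaling and 6 with quantile normalization. Of 21 midbody and abscission genes, 1 rose on the deposited scale, Arhgap11a, by 1.03 (SE 0.27, adjusted p = 0.0296), against 5 with median-ratio scaling and 4 with quantile normalization. Of 16 genes of the MuvB, B-Myb and DREAM group, Lin52, a MuvB subunit, rose by 0.80 (SE 0.22, adjusted p = 0.0370), and Nfya, a subunit of the CCAAT-binding factor NF-Y, fell to 13.5, 14.4 and 14.9 TPM in HFD libraries, against 21.2, 37.3 and 28.3 TPM in ND libraries. The log2 fold change of Nfya was -0.93 (SE 0.20, adjusted p = 0.0151).

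Of 10 genes that hold back Cdk1 or the cell cycle, 1 rose in HFD vs ND, against 1.28% of all genes. It was Gadd45b, a growth-arrest gene, which rose by 1.59 (SE 0.43, adjusted p = 0.0338). In HFD vs sHFD 6 of the 10 rose, against 10.3% of all genes. Gadd45b had 135, 128 and 156 TPM in HFD libraries, 19.7, 20.7 and 17.9 TPM in sHFD libraries, and 109, 18.2 and 47.3 TPM in ND libraries. ND replicate 1 was again close to the HFD libraries, far above ND replicate 2. In HFD vs ND 2 of the 10 rose with median-ratio scaling and 0 with quantile normalization. Over all 13655 genes, 642 rose with median-ratio scaling and 427 with quantile normalization.

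Of 40 DNA replication and S-phase genes in HFD vs ND, 1 rose, against 1.28% of all genes, and 2 fell, against 9.59% of all genes, with a median of -0.41, which is 0.28 below that of all genes. In HFD vs sHFD 1 of the 40 rose, against 10.3% of all genes, and 15 fell, against 23.9%, with a median of -0.54, which is 0.38 below that of all genes. The 15 that fell were 11 with median-ratio scaling and 8 with quantile normalization. Over all 13655 genes, 3259 fell as deposited, 2600 with median-ratio scaling and 2407 with quantile normalization. Orc6, an origin recognition subunit, rose by 0.74 in HFD vs ND (SE 0.21, adjusted p = 0.0402). Pola2, of the DNA polymerase alpha complex, was at -0.98 (SE 0.20, adjusted p = 0.0141) and Lig1, the replicative ligase, at -0.83 (SE 0.23, adjusted p = 0.0368). Summed over the 40 genes, HFD libraries had 897, 965 and 783 TPM, sHFD libraries 1054, 1568 and 1011 TPM, and ND libraries 896, 1359 and 1090 TPM. sHFD replicate 2, the highest library in the 9 members named above, was also the highest here. The median of this list stayed below 0 under both other scalings.

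**Figure D5:**
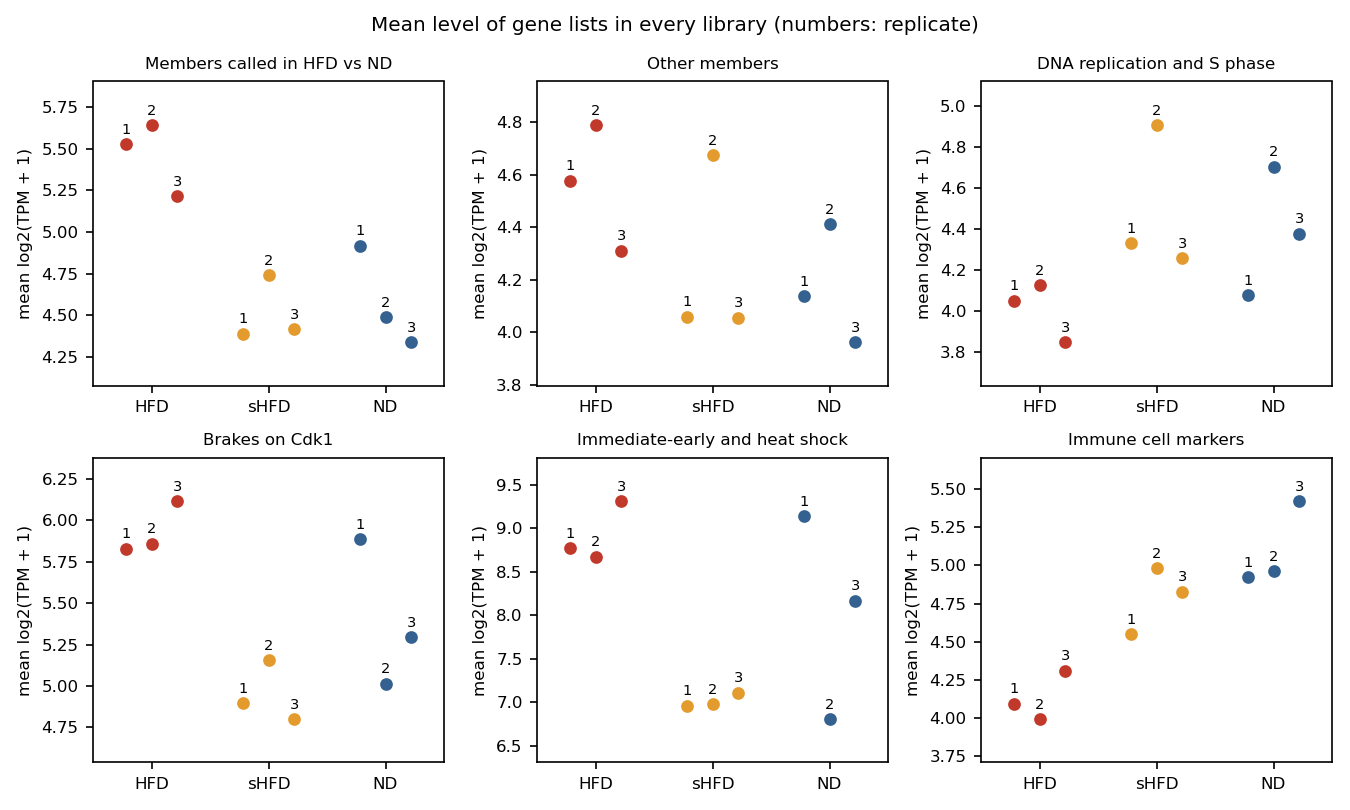
Mean log2(TPM + 1) of 6 gene lists (panels; each with its own vertical axis) in HFD, sHFD and ND libraries, with the replicate number at each point. The first 2 panels split the members by their call in HFD vs ND, so the spacing of HFD and ND there follows from that choice; ND replicate 1 lies close to the HFD libraries in the brakes on Cdk1 and the immediate-early and heat-shock genes.

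Markers of other cells and of stress also differed between diets. Over all genes, 1.28% were called higher and 9.59% lower in HFD vs ND, and 10.3% higher and 23.9% lower in HFD vs sHFD. With median-ratio scaling, 642 of 13655 genes were higher and 997 lower in HFD vs ND, and 2608 and 2600 in HFD vs sHFD. With quantile normalization the counts were 427 and 637 in HFD vs ND, and 2401 and 2407 in HFD vs sHFD. Of 14 immune cell markers, 13 fell and 0 rose in HFD vs ND, with summed TPM of 335 to 394 in HFD libraries, 458 to 571 in sHFD libraries and 581 to 832 in ND libraries. With median-ratio scaling 9 of the 14 fell, and with quantile normalization 7. Of 14 immediate-early and heat-shock genes, 1 (Hspb1) rose in HFD vs ND and 14 rose in HFD vs sHFD, with summed TPM of 7872 to 12338 in HFD libraries, 2337 to 2605 in sHFD libraries and 2397 to 10769 in ND libraries, the highest ND value being that of replicate 1. In HFD vs sHFD 1 immune marker rose and 7 fell. Of 9 smooth muscle and pericyte markers, 1 rose and 4 fell in HFD vs ND, while 1 rose and 7 fell in HFD vs sHFD. Of 8 red cell markers 0 rose and 1 fell in HFD vs ND, and 0 rose and 6 fell in HFD vs sHFD, where 2 fell with median-ratio scaling and 4 with quantile normalization. Of 8 epicardial markers, 1 rose and 1 fell in HFD vs ND, with 7 above 0 and a median of 0.45. There 4 rose and 0 fell with median-ratio scaling, and 2 rose and 0 fell with quantile normalization. In HFD vs sHFD 2 epicardial markers rose and 1 fell, against 4 and 1 under either other scaling. Of 10 fibroblast and 12 endothelial markers 0 were called in HFD vs ND, while 1 fibroblast marker rose and 1 endothelial marker fell in HFD vs sHFD. No gene of these lists was at 0 in any library.

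Of 15 cardiomyocyte markers, 1 rose in HFD vs ND, Myh7, the fetal myosin heavy chain, and 0 fell, with summed TPM of 26149 to 31265 in HFD libraries, 36104 to 51773 in sHFD libraries and 22065 to 37304 in ND libraries. In HFD vs sHFD, 1 cardiomyocyte marker rose, against 10.3% of all genes, and 3 fell, against 23.9%. With median-ratio scaling 1 rose and 1 fell, and with quantile normalization 1 rose and 4 fell. In sHFD vs ND 0 genes of any of these lists passed, at the threshold or under either other scaling. Whether other cell types, or the immediate-early and heat-shock response, played a part in the differences of the mitosis genes was not tested.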

How the data were processed

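The authors deposited 1 table of TPM values for 18738 genes in 9 libraries. RSEM 1.3.1 and the build GRCm38 are named, with no role, per the submitters' processing notes, and the sources used here do not give the aligner, annotation, strand setting or read depth. The columns named CON, MID and HIGH were read as ND, sHFD and HFD, with the replicate number of the label, and no column was left unused.

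Values were taken as log2(TPM + 1) without further scaling, and the 13655 genes averaging 1 TPM or more were tested. limma 3.58.1 in R 4.3.3 was fitted to all 9 libraries with diet as the factor and an intensity trend on the variance, which left 6 residual degrees of freedom. P-values are two-sided and Benjamini-Hochberg adjusted over all genes, and the threshold was 0.05. The fit was tested on simulated data. No pair of libraries was identical.

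The members and the 23 gene lists were chosen with earlier results of these data known, so lists are described by counts and medians without a test. Of 338 list genes, 6 were not matched in the table. All 9 values are printed for members called in HFD vs ND, for the smallest p of each class in the other comparisons, and for Mki67, Top2a, Cdk1, Ccnb1, Aurkb and Anln. Of other lists, up to 3 genes with the smallest p were named. Further list genes named as calls (Cenps, Ckap2l and Kif18b) were chosen after their values were seen. Shared 50-base stretches and exon overlaps come from GENCODE vM21, and gene positions and promoters from RefSeq GRCm38.p6. The alternatives were another pseudocount (0.1), no filter, median-ratio and quantile scaling, no trend, 2 diets in the fit, a replicate block and leaving out each library.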

Additional observations from a re-analysis of the deposited data

How the results depend on the processing

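The member medians of HFD vs ND and of HFD vs sHFD kept their direction under every alternative run, and moved by less than the spread within diets. The count of members higher in HFD vs ND, 13 as reported, was 5 with no filter on low values, 25 with median-ratio scaling, 3 with 2 diets in the fit and 20 with the replicate block, and 0 to 22 when 1 library was left out. Over all genes, 175 were higher as reported, 77 of 18735 with no filter and 642 with median-ratio scaling. With 2 diets in the fit 35 genes were higher, with the replicate block 193, and 4 to 987 when 1 library was left out. In HFD vs sHFD the members higher, 22 as reported, numbered 8 to 23 when 1 library was left out, and the members lower numbered 1 with 2 diets in the fit, 1 with the replicate block and 0 to 1 when 1 library was left out. Over all genes, 1406 were higher as reported and 634 to 1741 when 1 library was left out. The genes lower numbered 3838 with 2 diets, 3399 with the block and 1955 to 3717 when 1 library was left out. The member median ran from 0.45 to 0.69 in HFD vs ND, from -0.12 to 0.15 in sHFD vs ND and from 0.46 to 0.69 in HFD vs sHFD when 1 library was left out. The cause was not tested. Whether replicate numbers pair the libraries is not known. Of the 9 same-numbered pairs, 4 had a correlation of their deviations over all tested genes above 0.1, in a range of -0.29 to 0.41, which cannot decide it. Among the members, replicate 2 was the highest of its diet in 35 for HFD, 42 for sHFD and 19 for ND, where replicate 1 was highest in 23. Replicate 3 was the lowest of its diet in 36, 22 and 29. Depth is unknown, so no limit from read numbers can be given.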
